A study of Mus musculus with 12 samples.

Results

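SINE B1 elements are short interspersed repeats of the mouse genome, and their RNA was followed through an immunoprecipitation of the LINE-1 (L1) protein ORF1p. The elements were taken by their annotation, as repeats of class SINE and family Alu, which gave 148088 of the 781935 repeat loci in the tables of single loci. The same names gave 16 of the 1528 rows in the table of repeat subfamilies. All samples came from testes of C57BL/6 mice, aged 3 months, of the genotype Mael-/-. They lack Maelstrom, a factor of the piRNA pathway that restrains transposons in male germ cells. TOTAL was the clarified testis extract, to which EDTA was added at 10 mM, which takes ribosomes apart. INPUT was the pool of sucrose gradient fractions 5 to 8 of that extract. Beads coupled to an antibody against ORF1p were incubated with INPUT to give IP, and uncoupled beads gave BO (beads only). Each of the 4 groups had 3 libraries of rRNA-depleted, stranded RNA, 12 in all. Samples of other genotypes were not analysed here, so every group shares the mutation. The labels do not say whether replicates came from separate animals, and the p-values measure only the spread between these libraries.

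B1 elements arose from 7SL RNA, the RNA scaffold of the signal recognition particle, which steers ribosomes to the endoplasmic reticulum. A full element carries an internal promoter for RNA polymerase III, made of an A box and a B box. B1 encodes no protein and depends on the enzymes of L1 to be copied into DNA and inserted at a new site, whereas L1 proteins act mostly on the L1 RNA that encodes them. Most B1 copies lie inside genes or near them, so reads on a B1 locus can come from a B1 transcript of its own or from a longer RNA that contains the copy. The subfamilies follow the age of the element. The PB1 group holds the oldest, proto-B1 copies, the B1F and B1_Mur groups are intermediate, and B1_Mus and B1_Mm are the youngest. FAM stands for fossil Alu monomer, an old relic of the same lineage.

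The layout of a B1 element is shown by 2 stretches of the mm10 genome that lie in exons of non-coding gene models of GENCODE M21 and overlap no exon part of a protein-coding model. They were found by searching 18930 long non-coding transcripts on both strands for the A box TGGTGGNNC followed by the B box GTTCNANNC, which do not overlap. Of 608 such pairs with starts between 20 and 100 bases apart, 310 (51%) had starts exactly 57 bases apart, and these gave 263 distinct stretches of 150 bases. Both stretches printed were chosen from the top of a ranking by agreement with the most common base of that set. They carried it at 144 of 150 positions (96%), a share that follows from the choice and is not typical of the set. The locus identifiers of the tables carry no coordinates, so the stretches illustrate the element and are not assigned to any locus measured here. The first lies in Gm38157 at chr1:34032470-34032619 and the second in Gm49413 at chr15:76580664-76580813, both on the plus strand, with the A box and the B box in capitals.
Gm38157: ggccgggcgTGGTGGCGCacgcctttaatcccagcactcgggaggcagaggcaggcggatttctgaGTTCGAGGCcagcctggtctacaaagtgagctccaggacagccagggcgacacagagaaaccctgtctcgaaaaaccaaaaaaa
Gm49413: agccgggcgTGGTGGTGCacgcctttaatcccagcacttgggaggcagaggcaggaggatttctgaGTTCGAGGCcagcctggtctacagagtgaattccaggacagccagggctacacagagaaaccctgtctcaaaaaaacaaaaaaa
The A box occurred in 1591 (4.84%) and the B box in 3063 (9.32%) of 32851 RefSeq promoters of 300 bases, on either strand. A match describes the letters and does not show that a box is used.

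The subfamily counts gave between 1384904 and 7282171 reads per library, of which 143542 to 417671 lay on B1. 7SL RNA made up between 38.15% and 51.61% of these reads in TOTAL and between 0.008819% and 0.224% in BO. BO replicate 3 stood apart from the others with 52.13% of its reads on large subunit rRNA. Mael mRNA, the gene removed, had the authors' mean of 0.65 normalised counts in TOTAL and 0 in IP. The 7 germ cell markers had means of 202 to 13894 in TOTAL, and the 5 spermatid markers had means of only 11.7 to 39.3. All 7 germ cell markers had a higher mean in IP than in BO, INPUT and TOTAL. All 4 Sertoli and all 4 Leydig markers had a lower mean in IP than in INPUT and TOTAL, with log2 ratios from -0.256 to -2.98. Against BO, the 4 Sertoli markers were lower and the 4 Leydig markers higher in IP. The median log2 ratio over all genes with an average of at least 10 was 0.81 against BO, 0.152 against INPUT and -0.0282 against TOTAL. Of the Leydig markers, Star at 0.403 and Hsd3b1 at 0.479 lay below the median against BO. Cyp11a1 at 1.39 and Cyp17a1 at 1.53 lay above it. The macrophage marker Cd68 had a mean of 179 in TOTAL and 23.7 in IP. The part of these cell types in the B1 results was not tested. INPUT, BO and IP were all derived from the testis extract, so these differences compare RNA between fractions and not numbers of cells.

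B1 RNA was abundant in every group and, with libraries scaled to a common 75th percentile, lowest in the ORF1p immunoprecipitate. As a share of all subfamily reads its mean was instead highest in IP, at 10.9%, beside 4.57% in TOTAL, 10.1% in INPUT and 9.66% in BO. The summed normalised read count of the 16 subfamilies was 258411, 267714 and 258199 in the TOTAL libraries. It was 291572, 296127 and 293058 in INPUT, 243944, 265194 and 266233 in BO, and 211132, 214592 and 220734 in IP. The IP libraries lay below all 9 others and the INPUT libraries above them. The counts had been scaled to 1 common 75th percentile in all libraries, and all fold changes below refer to that scale unless another is named. By the paper's methods, IP libraries were made from less RNA than TOTAL and INPUT libraries. BO libraries were made from the RNA yield in the volume used for IP. The counts therefore compare the make-up of libraries and not the amounts of RNA in the groups.

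B1_Mus1, a young subfamily with 25426 listed loci, had the highest B1 read count in each library. Its normalised read count was 37794, 38893 and 37365 in TOTAL and 40584, 42267 and 41105 in INPUT. It was 29869.8, 32840.2 and 34176 in BO and 28961, 28947 and 29223 in IP. The IP values spanned the narrowest range and lay below all the others. In limma with Benjamini-Hochberg adjustment over 1180 subfamilies, the log2 difference of IP from INPUT was -0.51 (SE 0.066, adjusted p = 0.000197) and from TOTAL -0.39 (SE 0.066, adjusted p = 0.00152). The difference from BO was -0.15 (SE 0.066, adjusted p = 0.0994), which did not pass the threshold of 0.05.

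B1_Mm, the subfamily named for the house mouse, had 15113, 14761 and 13746 normalised reads in TOTAL and 14491, 14556 and 14035 in INPUT. BO had 10816, 12038 and 12234, and IP had 9725, 10035 and 10278. TOTAL and INPUT overlapped, and IP lay below BO without overlap. The log2 difference of IP was -0.54 from TOTAL (SE 0.067, limma adjusted p = 0.000174), the largest fall of any B1 subfamily in that comparison, -0.52 from INPUT (SE 0.067, adjusted p = 0.000191) and -0.22 from BO (SE 0.067, adjusted p = 0.0225). B1_Mus2 had its highest mean in INPUT and its lowest in IP, with 30058 ± 751 in TOTAL, 31901 ± 533 in INPUT, 26201 ± 2077 in BO and 22530.5 ± 104 in IP (SD, n = 3). Its log2 differences were -0.42 from TOTAL (adjusted p = 0.00118), -0.50 from INPUT (adjusted p = 0.000268) and -0.21 from BO (adjusted p = 0.0288), each with an SE of 0.068 in limma.

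PB1D10, the proto-B1 subfamily with the most reads, had its highest values in INPUT and was again lowest in IP. Its normalised read count was 25972, 27751 and 26827 in TOTAL, 31177, 30837 and 31141 in INPUT, 27689.6, 29458 and 28366 in BO, and 23428, 24233 and 24979 in IP. The IP libraries overlapped with no other group. The log2 difference of IP was -0.36 from INPUT (SE 0.061, limma adjusted p = 0.00116) and -0.24 from BO (adjusted p = 0.00975). From TOTAL it was -0.15 (adjusted p = 0.101), which did not pass.

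The intermediate subfamilies B1F and B1_Mur4 also had their lowest mean in IP. B1F had means of 18832.5 ± 719 in TOTAL, 21765 ± 464 in INPUT, 20558.5 ± 589 in BO and 16866 ± 444 in IP (SD, n = 3). Its log2 difference of IP was -0.37 from INPUT (SE 0.060, limma adjusted p = 0.000909), -0.29 from BO (adjusted p = 0.00288) and -0.16 from TOTAL (adjusted p = 0.0787). B1_Mur4 had means of 19593 ± 672 in TOTAL, 21945 ± 627 in INPUT, 18058 ± 1027 in BO and 15807.5 ± 533 in IP (SD, n = 3). Its log2 difference of IP was -0.47 from INPUT (SE 0.065, limma adjusted p = 0.000281), -0.31 from TOTAL (adjusted p = 0.00554) and -0.19 from BO (adjusted p = 0.0388).

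**Figure D1:**
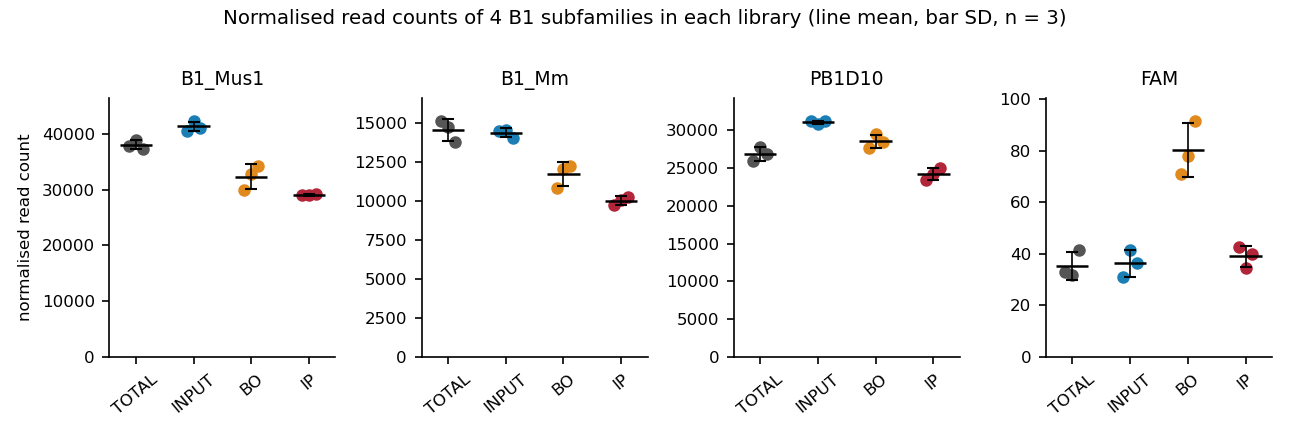
Normalised read counts (y axis, from 0) of B1_Mus1, B1_Mm, PB1D10 and FAM in the 3 libraries of each group, with points for libraries, lines for means and bars for SD. The 3 IP points are the lowest for B1_Mus1, B1_Mm and PB1D10, and the 3 BO points are the highest for FAM, at 71.0 to 91.4.

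The remaining subfamilies had the following means, in the order TOTAL, INPUT, BO and IP. B1_Mur1 had 20833, 23921, 24987 and 18224, B1_Mur2 had 17547, 19783, 17442 and 14004, and B1_Mur3 had 13720, 14815, 12921 and 11945. B1F1 had 9175, 10733, 10176 and 8076, and B1F2 had 8506, 9611, 10128 and 7637. All 5 of these intermediate subfamilies had their lowest mean in IP, and B1_Mur1 and B1F2 had their highest in BO. Of the proto-B1 subfamilies, PB1D9 had 17502, 21067.5, 17432 and 14407, PB1D7 had 11954, 14471, 13474 and 10465.5, PB1D11 had 7392, 8853, 7773 and 6273, and PB1 had 6886, 7953, 6731 and 5941. These 4 had their highest mean in INPUT and their lowest in IP.

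The question the IP was made to answer is which RNAs accompany ORF1p beyond the material it was taken from and beyond what beads hold alone. Against INPUT, no B1 subfamily rose and 15 of 16 fell, where 11% of the 1180 subfamilies tested rose and 16.7% fell. The log2 differences of those 15 ran from -0.55 for PB1D9 (SE 0.059, limma adjusted p = 5.28e-05) to -0.31 for B1_Mur3 (SE 0.065, adjusted p = 0.0039). In linear terms IP held 0.684 to 0.806 of the INPUT level. The exception was FAM at 0.11 (SE 0.19, adjusted p = 0.717). The median over the B1 subfamilies was -0.44 and over all subfamilies -0.06.

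Against BO, no B1 subfamily rose and 13 of 16 fell, where 11.3% of all subfamilies tested rose and 23.2% fell. These falls concern the make-up of the libraries and do not show which beads held more B1 RNA. B1_Mur1 fell by 0.45 (SE 0.061, limma adjusted p = 0.000154) and B1F2 by 0.41 (SE 0.059, adjusted p = 0.000248). B1_Mur3, at -0.11, was the least different (SE 0.065, adjusted p = 0.213), and PB1 at -0.18 also did not pass (adjusted p = 0.0962). FAM fell by 1.02 (SE 0.19, adjusted p = 0.00148) and was the only B1 subfamily past 2-fold, a mark passed by 8.9% of all subfamilies in either direction. It stayed below 2-fold without BO replicate 3 (-0.92), without IP replicate 2 (-0.93), with edgeR (-0.89), with a pseudocount of 10 (-0.87) and on the other 3 scalings (-0.90 to -0.53). The median was -0.28 for B1 and -0.12 for all subfamilies. The calls for B1_Mm, B1_Mus2 and B1_Mur4 against BO were lost when 1 of several single libraries was left out, BO replicate 3 among them, and 10 to 15 subfamilies then fell, with 10 in the absence of BO replicate 3. By edgeR's quasi-likelihood test 7 fell against BO, where 14.8% of all subfamilies fell. When libraries were scaled to their totals over LINE, SINE, LTR and DNA elements 3 of 16 fell, close to the 12.5% of all subfamilies that did. B1_Mm, B1_Mus2, B1_Mur4, B1F and PB1D10 lost their calls in both, with PB1D10 at -0.10 and -0.08 and B1F at -0.15 and -0.13.

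Against TOTAL, the unfractionated extract, no B1 subfamily rose and 10 of 16 fell, where 10.2% of all subfamilies rose and 12.5% fell. The 3 youngest subfamilies B1_Mm, B1_Mus2 and B1_Mus1 had the largest falls. B1F, B1F1, B1F2, PB1D10 and PB1 had log2 differences of -0.15 to -0.21 that did not pass (limma adjusted p from 0.0596 to 0.101), and FAM had 0.14 (SE 0.19, adjusted p = 0.648). The median was -0.21 for B1 and -0.05 for all subfamilies. In all 3 comparisons of IP, 0 B1 subfamilies were higher at an unadjusted p under 0.05, and 0 rose by edgeR's quasi-likelihood test.

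The sign of these differences depended on the scale. 7SL RNA was on average 44.9% of the reads in TOTAL and 1.46% in IP, and scaling each library to its total moved the median of all subfamilies by 0.48 against BO, 0.54 against INPUT and 1.53 against TOTAL. On that scale no B1 subfamily passed the test in either direction against BO or INPUT, and all 16 rose against TOTAL, where 90.7% of all subfamilies rose, with a B1 median of 1.34 beside 1.49 for all subfamilies. The B1 median was below that of all subfamilies on both scales, with 0.22 beside 0.36 against BO and 0.10 beside 0.47 against INPUT. Between INPUT and TOTAL all 16 also rose on that scale, where 78.1% of all subfamilies did.

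**Figure D2:**
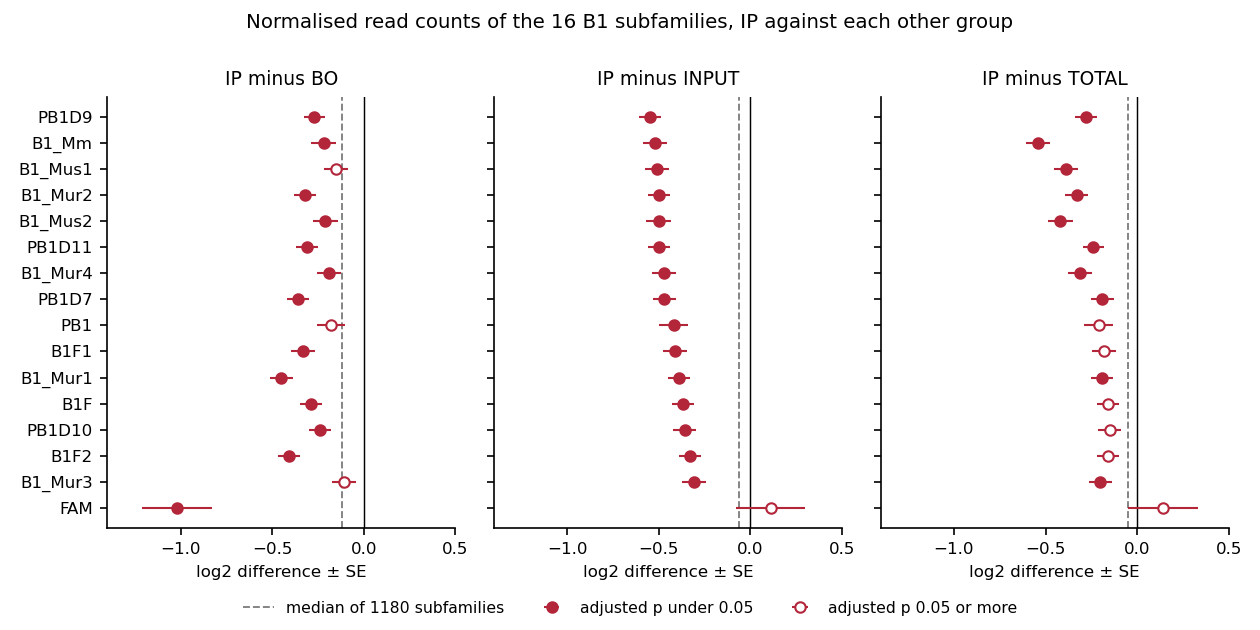
Log2 difference of the normalised read count (x axis, bars SE) of IP from BO, INPUT and TOTAL for the 16 B1 subfamilies (rows), with filled points for an adjusted p under 0.05 and a dashed line at the median of all 1180 subfamilies. Against INPUT, 15 points are filled and lie between -0.55 and -0.31, while FAM lies apart at -1.02 against BO and near 0 in the other panels.

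Fractionation and the beads alone were compared in the same way. Between INPUT and TOTAL, 3 of 16 B1 subfamilies rose and none fell, where 0.847% of all subfamilies rose and 0.847% fell. They were the proto-B1 subfamilies PB1D7 at 0.28 (SE 0.062, limma adjusted p = 0.0498), PB1D9 at 0.27 (SE 0.059, adjusted p = 0.0483) and PB1D11 at 0.26 (SE 0.058, adjusted p = 0.0493). These values lie at the threshold, and none of the 3 calls held when any 1 of the 6 libraries was left out. TOTAL and INPUT libraries of the same number deviated together, and with the replicate number as a block 8 B1 subfamilies rose and none fell, where 2.97% of all subfamilies rose and 2.71% fell. They were these 3 with B1F1, PB1D10, B1F, B1_Mur1 and B1F2, and PB1D7 then had a limma adjusted p of 0.0103. A paired fit of these 2 groups alone gave 11 higher and 0 lower, where 7.37% of all subfamilies rose and 7.63% fell. In the block over the 4 groups, leaving out 1 library left 3 without TOTAL replicate 1, 1 without TOTAL replicate 2 and 0 without each of the other 4. B1_Mm had the lowest difference at -0.02 (SE 0.067, adjusted p = 0.925). Without adjustment, 11 B1 subfamilies had a p under 0.05, all higher in INPUT, as did 9.07% of all subfamilies in that direction, and edgeR's quasi-likelihood test called 0 in either direction after adjustment.

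Between BO and INPUT, 9 B1 subfamilies fell and 1 rose, where 11.7% of all subfamilies fell and 17.2% rose. The largest fall was that of B1_Mus1 at -0.36 (SE 0.066, limma adjusted p = 0.00195). B1_Mm at -0.30 and B1_Mus2 at -0.29 followed (adjusted p = 0.0057 and 0.00776). PB1D10, PB1D7, B1F, B1F1, B1_Mur1 and B1F2 had differences of -0.12 to 0.08 that did not pass. FAM rose by 1.12 (SE 0.19, adjusted p = 0.00118), past the 2-fold mark that 5.42% of all subfamilies passed in either direction. It stayed below 2-fold with a pseudocount of 10 (0.96). Scaled to library totals it had 1.17, which did not pass (limma adjusted p = 0.0654). Without BO replicate 1 or without INPUT replicate 2 only 5 subfamilies fell.

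FAM, the smallest subfamily with 30 listed loci, had the lowest read counts of B1. It had 71.0, 78.1 and 91.4 normalised reads in the BO libraries, against 42.7, 34.6 and 39.99 in IP, 31.0, 41.6 and 36.3 in INPUT, and 32.8, 31.8 and 41.5 in TOTAL. BO lay above all 9 other libraries, and the other 3 groups overlapped. The counts are small, with 27 to 114 reads per library. In the tables of single loci, a single FAM locus, FAM_99, held 52.3% of the summed FAM mean of BO and 14% of that of IP. Another, FAM_40, held 70.2% of the IP sum and 31.8% of the INPUT sum. The summed FAM loci had a log2 ratio of IP to INPUT of 0.025, and of -1.17 without FAM_40. Against BO it was -1.7, and -0.852 without FAM_99, so a few copies set the FAM sum.

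Ratios within a library do not depend on how libraries are scaled to each other. B1 made up 14.6%, 15.9% and 15.7% of the reads on transposable elements in TOTAL, 15.9%, 17.2% and 17.0% in INPUT, 12.9%, 13.6% and 14.4% in BO, and 11.98%, 12.6% and 13.4% in IP. The IP libraries overlapped with BO and lay below every TOTAL and INPUT library. The mean difference of IP was -4.05 percentage points from INPUT and -2.77 from TOTAL, each with p = 0.1 in a two-sided exact permutation test, which is the smallest p that 3 against 3 libraries allow. From BO it was -0.978 points (exact p = 0.2), and -0.608 without BO replicate 3 or -0.649 without IP replicate 1. Within SINE reads alone the difference from TOTAL turned to 0.504 points, and that from BO was -2.38.

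B2 is the other large SINE group of the mouse. It arose from a tRNA, is also transcribed by RNA polymerase III and also needs L1 to move. The log2 ratio of B1 to B2 reads was -0.121, 0.0443 and 0.0258 in TOTAL, 0.342, 0.474 and 0.443 in INPUT, 0.484, 0.448 and 0.442 in BO, and 0.388, 0.0402 and 0.161 in IP. The IP libraries varied most and lay below every BO library. IP minus BO was -0.262 (exact permutation p = 0.1), IP minus INPUT -0.223 (exact p = 0.2) and IP minus TOTAL 0.213 (exact p = 0.2). The difference from TOTAL was 0.118 without IP replicate 1 and that from INPUT -0.145 without IP replicate 2. Among B2 subfamilies, B2_Mm1a rose in IP against BO by 1.36 (SE 0.23, limma adjusted p = 0.000641) and fell against TOTAL by 0.97 (adjusted p = 0.0095), so its sign differed between these comparisons. Against INPUT, B2_Mm1a had 0.48 (limma adjusted p = 0.135), which did not pass. B2_Mm2 had 0.04 against BO (limma adjusted p = 0.824), -0.37 against INPUT (adjusted p = 0.0426) and -0.68 against TOTAL (adjusted p = 0.00222). By edgeR's quasi-likelihood test its call against INPUT was lost (adjusted p = 0.0576). Scaled to library totals, the difference from TOTAL was 0.58 for B2_Mm1a (adjusted p = 0.126 in limma) and 0.87 for B2_Mm2 (adjusted p = 0.0221).

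The ratio of B1 to its ancestor 7SL RNA moved far more than any B1 level. The log2 ratio of B1 to 7SLRNA reads was -2.73, -3.67 and -3.51 in TOTAL and -0.735, -0.87 and -0.884 in INPUT. It was 5.64, 10.4 and 6.64 in BO and 2.71, 2.75 and 3.28 in IP. The 4 groups did not overlap. IP differed from TOTAL by 6.22, from INPUT by 3.74 and from BO by -4.65, each with an exact permutation p of 0.1. The difference from BO was -3.23 without BO replicate 2 and -5.61 without BO replicate 1. The 7SLRNA count itself was 20.8-fold higher in IP than in BO (limma adjusted p = 0.00176), from 7.91-fold without BO replicate 2 to 39.4-fold without BO replicate 1, and 0.0549 of the INPUT level (adjusted p = 0.00342). The BO ratios rest on as few as 151 reads of 7SLRNA in a library.

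Young against old B1 was compared as the log2 ratio of B1_Mm, B1_Mus1 and B1_Mus2 reads to reads of the 5 PB1 subfamilies. It was 0.264, 0.225 and 0.192 in TOTAL, 0.048, 0.102 and 0.0612 in INPUT, -0.138, -0.0858 and -0.00566 in BO, and 0.0346, 0.0117 and -0.0249 in IP. Every TOTAL library lay above every other library, and IP lay below INPUT without overlap. IP differed from TOTAL by -0.22 and from INPUT by -0.0634, each with an exact permutation p of 0.1, and from BO by 0.0836 (exact p = 0.2), or 0.0528 without BO replicate 1. The young subfamilies made up a smaller share of B1 reads in BO and IP than in TOTAL, with B1_Mus1 at 14.54% ± 0.078 in TOTAL, 14.07% ± 0.182 in INPUT, 12.49% ± 0.31 in BO and 13.48% ± 0.239 in IP (SD, n = 3).

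**Figure D3:**
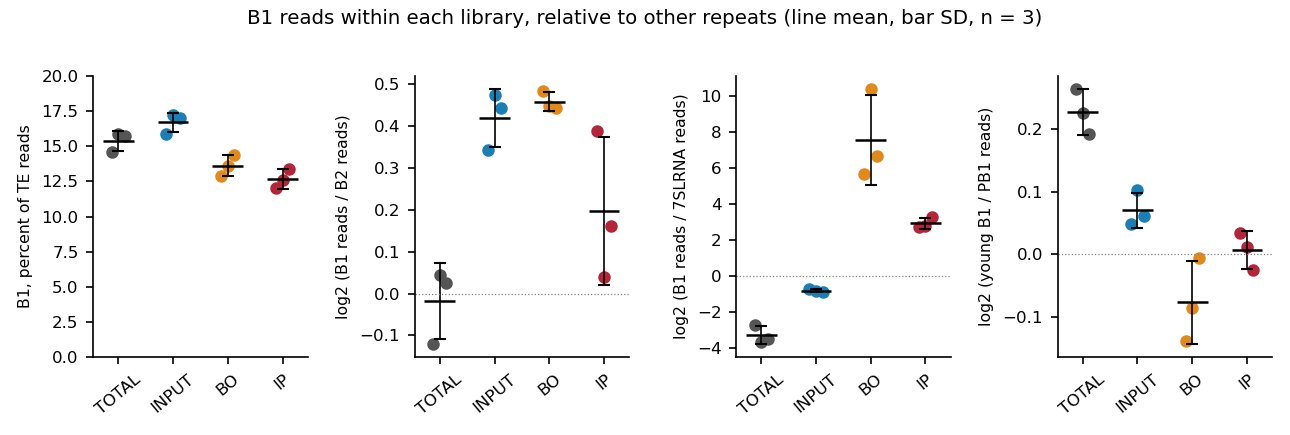
B1 reads within each library (points, with mean and SD) as the percentage of reads on transposable elements and as log2 ratios to B2 reads, to 7SLRNA reads and of young B1 to PB1 reads, by group on the x axis. The 3 IP points lie below TOTAL and INPUT in the first panel, and between INPUT and BO in the ratio to 7SLRNA.

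L1Md_A, a young L1 subfamily whose full copies encode ORF1p, moved the other way. L1Md_A had 26309, 19342 and 18284 normalised reads in TOTAL, 27258, 18979.5 and 17934 in INPUT, 15633, 14530.5 and 14131 in BO, and 95645, 75201 and 56029 in IP. L1Md_A rose in IP by 1.81 against INPUT (SE 0.20, limma adjusted p = 6.59e-05) and by 2.32 against BO (SE 0.20, adjusted p = 5.61e-06). Among the other SINE rows, ID_B1, a fusion that carries a B1 part, fell by 0.37 against INPUT (adjusted p = 0.0023) and by 0.26 against BO (adjusted p = 0.012). B3 fell by 0.37 and 0.29 (adjusted p = 0.00414 and 0.013). By edgeR's quasi-likelihood test ID_B1 and B3 lost their calls against BO (adjusted p = 0.228 and 0.172). Against TOTAL neither passed, with -0.16 for ID_B1 and -0.22 for B3 (limma adjusted p = 0.136 and 0.0641). B4 had -0.23 against INPUT and -0.25 against BO, which did not pass.

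At single loci the tables give the mean of each group as the authors normalised it, with no value per library, and the 3 tables are normalised separately. B1 reads were spread thinly over the genome. In the table of IP against INPUT, 82661 of 148088 B1 loci (55.8%) had a mean above 0 in INPUT and 65026 (43.9%) in IP. Only 1610 had a mean of at least 10 in INPUT and 655 in IP, and 19 and 31 had a mean of at least 100. The 100 highest loci held 7.33% of the summed B1 mean in INPUT and 10.9% in IP, and 50% of the IP sum was reached only with 6514 loci. In the table of IP against BO, the 100 highest held 11.2% in BO, where 54088 loci (36.5%) were above 0.

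Ratios were taken for loci whose 2 group means averaged at least 10, on the log2 scale with a pseudocount of 1, and changes past 2-fold were counted without a test. A locus can pass this filter through 1 of its 2 means alone, which moves its ratio towards that group. B1 loci with a mean of at least 10 numbered 1610 in INPUT and 655 in IP. In the comparison with BO they numbered 1279 in BO and 458 in IP, and in that with TOTAL 1050 and 648. How far this sets the medians and counts was not tested. Against INPUT, 1003 B1 loci were kept, 0.677% of those listed. The median log2 ratio was -0.714, with 113 loci (11.3%) past 2-fold higher and 438 (43.7%) past 2-fold lower in IP. Over all 6645 repeat loci kept, the median was -0.25, with 22.1% higher and 31.2% lower. The median was -0.469 for B2, -0.626 for B4, -0.638 for MIR and 0.74 for L1 loci.

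Against BO, 765 B1 loci were kept and the median log2 ratio was -1.35. Of these, 82 (10.7%) were past 2-fold higher and 447 (58.4%) past 2-fold lower, where 17.2% and 47.7% of all 5557 repeat loci kept were. Against TOTAL, 794 were kept with a median of -0.281, and 136 (17.1%) were higher and 247 (31.1%) lower, where 24.1% and 24.3% of all 6188 were. B2 loci had a median of -1.36 against BO and -0.723 against TOTAL, the latter below that of B1. Centred on the median of all repeat loci, the B1 median was -0.455 against BO, -0.464 against INPUT and -0.291 against TOTAL. Of the 496 B1 loci kept in all 3 tables, which share the IP libraries, 45 (9.07%) were past 2-fold higher in IP each time and 61 (12.3%) lower. Among all 4018 such repeat loci, 17.1% were higher and 9.98% lower.

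**Figure D4:**
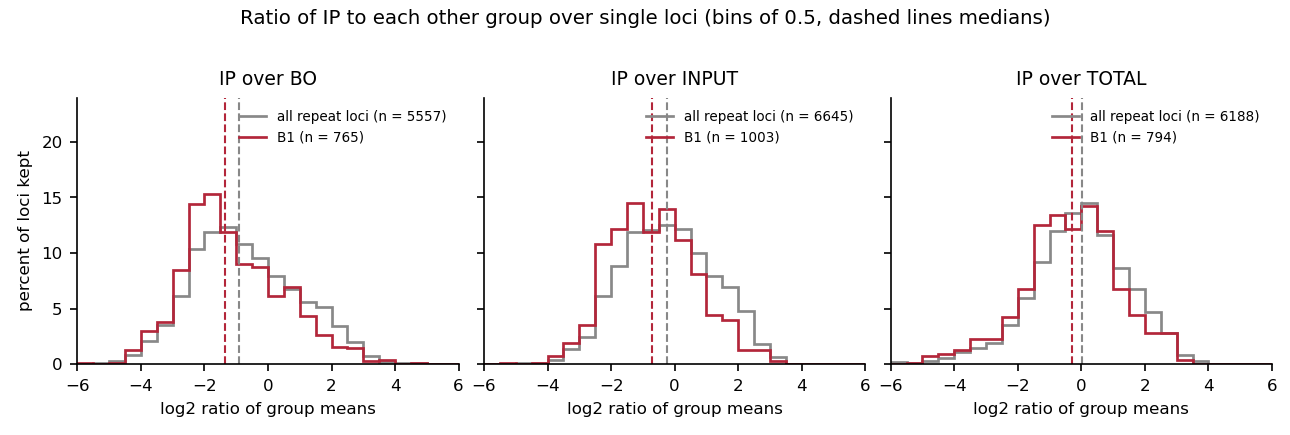
Distribution of the log2 ratio of IP to BO, INPUT and TOTAL group means over single loci (x axis; y axis, percent of loci kept in bins of 0.5), for B1 loci and for all repeat loci, with dashed lines at the medians. The B1 median lies to the left of the median of all repeat loci in each panel, at -1.35, -0.714 and -0.281.

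Loci of the same subfamily differed widely among themselves. Over the 15 subfamilies with at least 10 loci kept, the median log2 ratio of IP to INPUT ran from -1.12 in PB1D11 to -0.3 in PB1D10. Within a subfamily the middle 50% of loci spanned between 1.45 and 2.67. PB1D10 also had the highest median against TOTAL, at 0.235, and B1_Mm the lowest, at -0.888, while the middle 50% of loci within a subfamily spanned between 0.726 and 2.14. Against BO the range was from -1.8 in PB1D11 to -0.851 in B1_Mur3.

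The ratio also moved with the level of the locus, taken as the average of the IP mean and the mean it was compared with. The same means form the ratio, so level and ratio are not independent. A locus can reach a high step through its IP mean alone, which raises the ratio, or through the other mean alone, which lowers it. How far this sets the medians of the steps was not tested. Against INPUT, the median of B1 loci was -1.05 at an average mean of 10 to 20 (682 loci), -0.329 at 20 to 50 (250 loci) and 0.161 at 50 and over (71 loci). Against TOTAL the same steps gave -0.559, 0.194 and 0.592 with 518, 210 and 66 loci. Over all repeat loci the steps were smaller, at -0.325, -0.125 and -0.00574 against INPUT. Against BO there was no such order in B1, with -1.38, -1.47 and -1.23. Against INPUT only the loci at 50 and over had a median above 0 among these steps, and against TOTAL only those at 10 to 20 had one below 0.

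The 5 B1 loci with the highest IP means are described here. They were chosen on the IP value, which favours a higher level in IP than in the other groups, and their ratios are given as a description. B1_Mus1_66233 had a mean of 345 normalised counts in IP beside 65.6 in INPUT, 5.19-fold, and was 7.47-fold above BO and 7.56-fold above TOTAL. B1_Mus2_67353 had 225 beside 38.4 in INPUT, and was 5.73-fold above INPUT, 9.53-fold above BO and 7.03-fold above TOTAL. B1_Mus1_49474, B1_Mur3_14380 and B1F_22972 were 3.19-fold, 3.31-fold and 3.02-fold above INPUT and 2.46-fold, 2.96-fold and 2.22-fold above BO. These 5 come from 4 subfamilies.

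Among loci with an average of at least 50, the 3 chosen for the highest ratio of IP to INPUT were B1_Mur1_21168 at 8.97-fold, PB1D10_36493 at 8.65-fold and PB1D10_36492 at 7.44-fold. Their means were 117, 156 and 202 in IP and 12.2, 17.1 and 26.3 in INPUT. Against BO the same loci were only 1.98-fold, 2.14-fold and 1.6-fold higher in IP. The pair from PB1D10 carries consecutive locus numbers, but reads shared between near-identical or neighbouring copies were assigned by the authors' counting, so the pair is uncertain as 2 separate loci.

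The 5 loci with the highest TOTAL means were chosen on the TOTAL value, which favours a lower level in IP, and are likewise only described. PB1_8235, the highest of all, had means of 1145 in TOTAL and 1255 in INPUT beside 87.3 and 88.3 in IP, which is 0.077 and 0.0711 of the level. In the BO table the same locus was at 67.2 in IP beside 12.7 in BO. B1_Mus1_43680 had 413 in TOTAL and 825 in INPUT, with IP at 0.445 and 0.225 of these levels. B1_Mus2_39856 had 196 in TOTAL and 110.1 in INPUT, with IP at 0.104 and 0.187. All 3 were among the lowest ratios of IP to INPUT, and all 3 were above BO, by 4.98-fold, 1.58-fold and 2.51-fold. B1_Mur3_5766 was 3.7-fold above BO, at 0.924 of INPUT and at 0.421 of TOTAL.

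PB1D7_2482 was the highest B1 locus of BO. Its mean was 811 in BO beside 134 in IP, which is 0.167 of that level, and IP was at 0.808 of INPUT and 0.965 of TOTAL. It made up 12.1% of the summed PB1D7 mean of BO. PB1_8235 weighed more on its subfamily, with 26.1% of the summed PB1 mean in INPUT and 29% in TOTAL. The log2 ratio of the PB1 sums was -0.823 against INPUT and -0.546 against TOTAL, and -0.435 and -0.0998 without this locus. In the other B1_Mus, B1_Mm, B1_Mur, B1F and PB1D subfamilies, the highest locus held at most 6.52% of a group's sum apart from PB1D7 in BO.

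**Figure D5:**
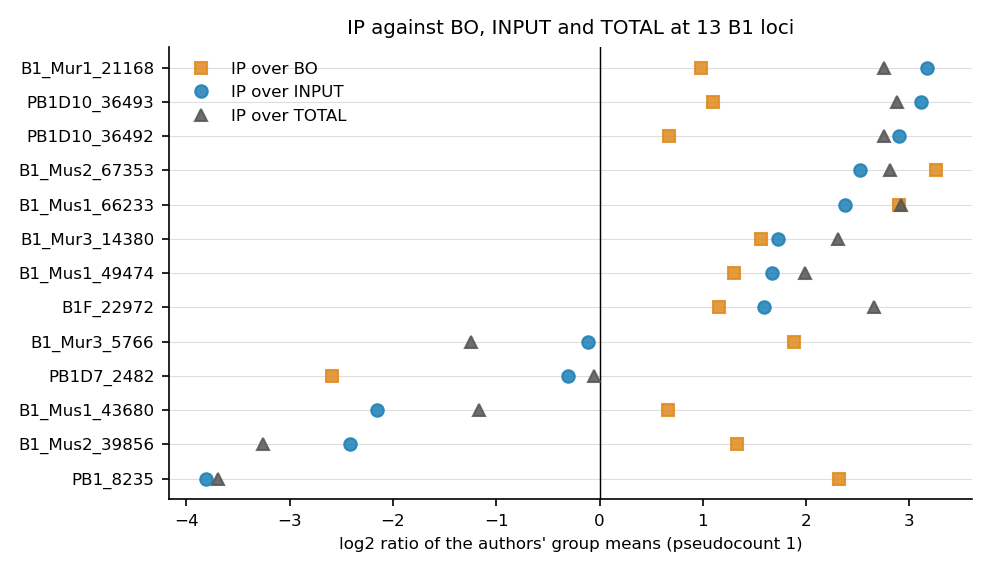
Log2 ratio (x axis, pseudocount 1) of the authors' IP mean to the BO, INPUT and TOTAL means at the 13 named B1 loci (rows), ordered by the ratio to INPUT. From B1F_22972 upward, 8 loci lie above 0 in all 3 comparisons, and PB1_8235 at the bottom lies below -3 against INPUT and TOTAL and above 2 against BO.

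B1 RNA, like 7SL RNA, is bound by the SRP9 and SRP14 proteins, and La binds the ends of new RNA polymerase III transcripts. Of 9 genes for signal recognition particle proteins and La, 7 were listed, and the mRNA of each had a higher mean in IP than in BO and INPUT. Srp9 had 452 in IP beside 156 in BO, a log2 ratio of 1.53, and Srp14 had 966 beside 179.7, a log2 ratio of 2.42. The 7 log2 ratios ran from 1.21 for Ssb, which encodes La, to 2.42 against BO, and from 0.65 for Srp72 to 1.81 for Srp19 against INPUT. Against TOTAL they ran from -0.565 for Srp9 to 0.569 for Srp68. The median over all genes with an average of at least 10 was 0.81 against BO, 0.152 against INPUT and -0.0282 against TOTAL. These are levels of mRNAs, not of the proteins, and they are group means with no test.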

How the data were processed

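The deposited tables of 12 RNA-seq libraries, 3 in each group, were analysed, with groups taken from the labels. Reads of 75 nt with up to 100 positions were mapped by the authors to mm10 with STAR 2.6.0c, reassigned with Telescope and summed per subfamily. The deposited signal in the subfamily table is the EBSeq-normalised count per library, with an equal 75th percentile. In every library 100% of values were whole multiples of a step, within 0.1 of a read, which gave the reads; a count test on them (edgeR 4.0.16) is among the alternatives, and it called 7, 15 and 7 B1 subfamilies and 175, 166 and 128 of all 1180 lower in IP than BO, INPUT and TOTAL. In the 3 tables of single loci, the deposited signal is the mean normalised count of each group from DESeq2 1.24.0, with no value per library, so their depth is unknown. Their other columns hold the authors' own comparisons and were not used.

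Subfamilies with a mean of at least 10 (1180) were fitted as log2(count + 1) with limma 3.58.1 in R 4.3.3, 1 fit of the 4 groups, with Benjamini-Hochberg adjustment over all and a threshold of 0.05. The fit was run on simulated counts with the same dispersion in all groups and no pairing. That run does not show how the fit behaves where groups differ in spread, as for B1_Mus1 (SD 2204 in BO and 155 in IP). Same-numbered TOTAL and INPUT libraries were taken as paired, because the deviations of each of the 3 pairs from their group means correlated above 0.1 (0.321 to 0.629, beside -0.511 to 0.331 for different numbers); the labels give only the numbers. Ratios within a library were compared with two-sided exact permutation tests. All 16 B1 subfamilies were kept. Named were all subfamilies, with statistics for 6 of them and for the extremes of each comparison, the loci with the 5 highest TOTAL and IP means, and the 3 highest and 3 lowest ratios of IP to INPUT at an average mean of at least 50. Members, lists and rules were chosen with earlier results of these data known. A step on locus sequences in the design was replaced by stretches from GENCODE M21 transcripts, because locus coordinates were not used here. Which strand the authors counted is not given in the sources used here, so sense and antisense reads cannot be told apart. The alternatives were other pseudocounts, filters, scalings, tools, fits and left-out libraries.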

Additional observations from a re-analysis of the deposited data

How the results depend on the processing

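The counts of B1 subfamilies lower in IP kept 0 higher calls in every alternative apart from scaling to library totals against TOTAL, but not their size. Scaled to library totals, 0 were lower in IP than BO, INPUT and TOTAL, 0 in BO than INPUT and 0 higher in BO than INPUT, and 16 were higher in IP and 16 in INPUT than TOTAL (90.7% and 78.1% of all subfamilies). That scaling also turned the sign of the named subfamilies: B1_Mm (0.27, 0.02 and 1.01 against BO, INPUT and TOTAL, and 0.99 for INPUT against TOTAL), B1_Mus1 (0.35, 0.04 and 1.16), B1_Mus2 (0.28, 0.04 and 1.13), B1_Mur4 (0.30, 0.07 and 1.24), B1F (0.21, 0.18 and 1.39), PB1D10 (0.26, 0.19 and 1.40) and B1_Mur3 (0.38 against BO). Against BO, 3 were lower when scaled to LINE, SINE, LTR and DNA totals, 8 with median ratio size factors and 7 with edgeR. Against BO, B1_Mus1 became 0.00 and B1_Mur3 0.04 with the first of these, and B1_Mur3 0.01 and 0.02 with the others. A fit of the 2 groups only left 6 lower in IP than TOTAL and 5 lower in BO than INPUT. The 3 calls higher in INPUT than TOTAL became 0 with no filter, with those 2 scalings, with the fit of the 2 groups only and with edgeR. A filter at a mean of 100 removed FAM, leaving 0 higher in BO than INPUT. The cause was not tested.

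Leaving out single libraries gave 10 to 15 lower in IP than BO, 15 in each case than INPUT and 7 to 8 than TOTAL, 0 in each case higher in INPUT than TOTAL, and 5 to 8 lower in BO than INPUT. B1_Mm ranged from -0.06 to 0.01 in INPUT against TOTAL, with the latter reached without TOTAL replicate 1. Over the named subfamilies, with the paired fits of INPUT and TOTAL included, 146 values without 1 library stayed on their side of the threshold, 23 lost it, 2 gained it and 3 changed sign. The ratio of B1 to 7SLRNA against BO ranged from -5.61 to -3.23.

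Same-numbered TOTAL and INPUT libraries deviated together. In each of the other 5 pairs of groups at least 1 of 3 correlations was not above 0.1, so those were not taken as paired. With 3 libraries per group this cannot show that they are unpaired. INPUT and BO of the same number had correlations from 0.0615 to 0.558, and IP and BO were both made from INPUT. With the replicate number as a block, 14, 15 and 14 B1 subfamilies were lower in IP than BO, INPUT and TOTAL, 8 were higher in INPUT than TOTAL, and 9 were lower in BO than INPUT. Added after seeing the data, the paired fit of INPUT and TOTAL alone gave 11 higher, and leaving out single libraries under the block gave 0 to 3, with B1_Mm from -0.07 to 0.03 (0.00 without INPUT replicate 3). The paired mean differences of the ratios, such as 6.22 for B1 to 7SLRNA against TOTAL, equal the unpaired ones by arithmetic and are no check of the pairing.

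With all SINE reads as the denominator, the B1 percentage was 0.504 points higher in IP than TOTAL, and its difference from BO was -2.38. The median over B1 loci against BO became -1.46 and -0.846 with pseudocounts of 0.1 and 10, -1.23 at an average mean of at least 50 and -0.455 when centred on all repeat loci. Against INPUT it became -0.457 with a pseudocount of 10, -0.9 and 0.161 at averages of at least 5 and 50, and -0.464 when centred. Against TOTAL it became -0.446 and 0.592 at those averages. Leaving out the highest locus, chosen after seeing the data, gave -0.852, -1.17 and -0.717 for the FAM sums against BO, INPUT and TOTAL. Leaving out exonic loci was not run. Locus means have no spread, and only 655 B1 loci had an IP mean of at least 10 in the INPUT table, which limits the ratios to few loci.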
